A study of Homo sapiens with 6 samples.

Results

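The genes described here are 10 genes of the YAP, TAZ and TEAD pathway, CTGF, CYR61, ANKRD1, AMOTL1, AMOTL2, LATS2, YAP1, WWTR1, TEAD1 and AJUBA, followed in RNA-seq of pancreatic ductal adenocarcinoma (PDAC) cells treated with inhibitors of retinoic acid receptor γ (RARγ). They were chosen by symbol, and all 10 were found, each as 1 of the 53826 entries that every library lists. PK-1 and Panc-1, established human PDAC cell lines, each gave a control culture and cultures exposed over 24 h to RARγi-1 (LY2955303) or to RARγi-2 (MM11253), RARγ antagonists of different structure. There was 1 library for each of the 6 conditions. The dose in this experiment and the vehicle of the control are not stated in the sources used here. A treatment entry in the labels reads RARγi-1 for both RARγi-2 libraries, so the libraries were assigned by their titles. The authors deposited TPM (a level scaled by transcript length and to the same total in every library) on a log2 scale, with every value under 1 TPM raised to 1 TPM, which is called the floor here.

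YAP1 and TAZ, the product of WWTR1, are transcriptional coactivators that bind no DNA themselves and reach their genes through the TEAD family of transcription factors. In the Hippo pathway, the kinases MST1 and MST2 activate LATS1 and LATS2, which phosphorylate YAP1 and TAZ so that they are held in the cytoplasm and degraded. When the pathway is off, as in spread cells or on a stiff support, YAP1 and TAZ enter the nucleus and raise the transcription of genes such as CTGF, CYR61 and ANKRD1, and also of AMOTL2 and LATS2, whose products restrain them in turn. In PDAC, YAP1 is known for its part in tumour growth. The activity of YAP1 and TAZ is set largely by phosphorylation and location, which RNA levels do not show.

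TEAD proteins bind a short core, GGAATG, which is known from the CTGF promoter. The promoters of CTGF and ANKRD1 are shown because both hold the core and both genes were lower in treated cells, and that of YAP1 because it also holds the core although the level of YAP1 stayed near the control. The sequences are from RefSeq (GRCh38.p14; the submitters' processing notes name hg38), read in the direction of the gene. The core is in capitals. The stretches are chr6:131951374-131951622 (CTGF, minus strand), chr10:90921277-90921337 (ANKRD1, minus strand) and chr11:102110197-102110446 (YAP1, plus strand), and that of ANKRD1 is shorter because only bases ahead of every annotated exon of the gene in GENCODE 29 are printed.
CTGF: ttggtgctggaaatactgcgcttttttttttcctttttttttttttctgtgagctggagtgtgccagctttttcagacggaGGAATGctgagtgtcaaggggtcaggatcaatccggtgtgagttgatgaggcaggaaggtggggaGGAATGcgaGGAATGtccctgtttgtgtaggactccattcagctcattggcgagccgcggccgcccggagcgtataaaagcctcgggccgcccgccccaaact
ANKRD1: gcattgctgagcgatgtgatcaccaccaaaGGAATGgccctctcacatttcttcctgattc
YAP1: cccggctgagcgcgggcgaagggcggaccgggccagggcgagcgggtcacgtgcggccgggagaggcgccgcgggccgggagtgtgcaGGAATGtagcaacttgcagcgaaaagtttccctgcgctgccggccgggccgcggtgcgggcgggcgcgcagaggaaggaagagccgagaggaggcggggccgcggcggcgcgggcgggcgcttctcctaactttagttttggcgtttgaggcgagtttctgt

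The promoter table holds 11 promoters of 8 of the 10 genes, and the letters GGAATG were searched on both strands in the 250 bases ahead of each RefSeq start site. In the CTGF promoter the core begins 169, 104 and 95 bases ahead of the start site. Of all 34943 promoters of this length, 11.9% hold the core at least once, 0.942% at least 2 times and 0.0830% at least 3 times, as CTGF does. ANKRD1 holds it 2 times, 220 and 128 bases ahead of its RefSeq start site. YAP1, 1 of the 2 promoters of AMOTL2 and 1 of the 2 promoters of AJUBA hold it once. The windows of CTGF, ANKRD1, AMOTL2 and AJUBA with a match also overlap annotated exons of their own gene. In CTGF, 249 bases lie ahead of these exons and hold all 3 matches. In ANKRD1, 61 bases do, and they hold only the match 220 bases ahead of the start site. No match was found in this window for AMOTL1, LATS2 or WWTR1. The AP-1 letters TGANTCA, which read the same on both strands and can share the letters TG with the core, were found once in the window of ANKRD1, not overlapping its cores, in no other of these promoters and in 6.59% of all promoters. Such matches describe letters and do not show that a factor binds there.

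The libraries had between 13149 and 13652 entries above the floor. TPM values keep no read number, so the depth is unknown and counting error could not be estimated. Each condition has 1 library, so no difference within a line has a replicate. A fit across the lines, with the line as a block, was not run, and no p-value is given. As a yardstick, the treated libraries of a line were compared with each other: the robust standard deviation of their log2 difference over the 1000 entries nearest in level to a gene is called the fold change spread, and real differences between the inhibitors are part of it. Over entries with at least 5 TPM it was 0.41 on the log2 scale in PK-1 and 0.32 in Panc-1. Log2 fold changes compare TPM + 1 in a treated library with TPM + 1 in the control library of its line, which understates the change of low genes. Rescaling the libraries by median ratios would shift log2 TPM differences of PK-1 RARγi-1 by -0.13, of Panc-1 RARγi-1 by -0.10 and of the RARγi-2 comparisons by 0.03 and 0.01, and those of TPM + 1 by less where levels are low. Of 5 epithelial markers, PK-1 libraries had all above the floor and Panc-1 libraries 4, with CDH1 at the floor. The summed level of these markers was 16834 TPM in the PK-1 control and 11210 and 11657 TPM after treatment, and 8413 TPM in the Panc-1 control and 1781 and 1482 TPM after treatment. KRT8, KRT18 and KRT19 made up most of these sums. CDH1 did not follow them in PK-1, with 170.1 TPM in the control and 270.2 and 385 TPM after treatment. EPCAM had 13.4, 19.4 and 9.18 TPM in the control, RARγi-1 and RARγi-2 libraries of Panc-1, so it was above the control with RARγi-1 only. In PK-1 EPCAM was below the control with both inhibitors, at 578, 552 and 497 TPM. The endothelial markers, PTPRC and CD3E, and 4 of 5 fibroblast markers were at the floor in all 6 libraries. The other fibroblast marker, COL1A1, had 2.10 to 52.4 TPM, and CD68, listed as an immune marker, had 19.8 to 276 TPM. The part of these markers in the results was not tested.

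ANKRD1 was lower by more than 2-fold in all 4 comparisons, CTGF, CYR61 and AJUBA in 3, AMOTL2 in 2 and TEAD1 in 1. AMOTL1, the coactivators YAP1 and WWTR1 and the kinase LATS2 stayed within 2-fold of the control in every comparison. In PK-1 cells, 1 of the 10 genes was lower by more than 2-fold with RARγi-1, against 4.85% of the 14269 entries above the floor in the line, and 5 of 10 with RARγi-2, against 12.3%. In Panc-1 cells, 5 of 10 were lower by more than 2-fold with RARγi-1, against 5.96% of 14184 entries, and 5 of 10 with RARγi-2, against 11.0%. With both inhibitors, 1 gene, ANKRD1, was lower by more than 2-fold in PK-1, against 4.60% of entries, and 5 in Panc-1, against 5.59%. None of the 10 was higher by more than 2-fold in any comparison, against 9.05% (RARγi-1) and 11.9% (RARγi-2) of the PK-1 entries and 7.30% and 8.34% of the Panc-1 entries. With both inhibitors, 7.10% of PK-1 entries and 5.33% of Panc-1 entries were higher. The share of all entries past 2-fold in all 4 comparisons was not computed, so such calls, here and below, stand without it. The median log2 fold change of the 10 genes was -0.20 under RARγi-1 and -1.15 under RARγi-2 in PK-1, where the medians of all entries were 0.13 and 0.01. In Panc-1 it was -0.84 and -1.15, beside 0.08 and -0.01 for all entries. The 10 genes are few and were chosen with results of these data known, and both comparisons within a line share a control library. In bulk RNA, fewer cells of a type and less RNA per cell cannot be told apart.

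**Figure D1:**
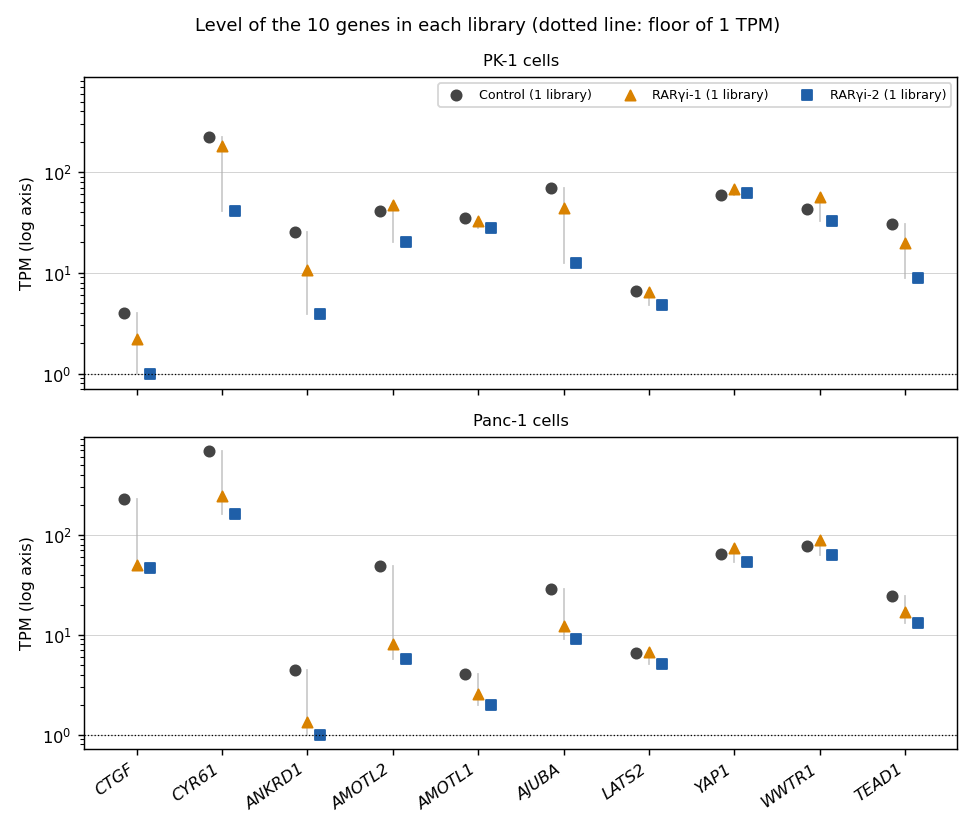
TPM on a log axis for each of the 10 genes in the 6 libraries, PK-1 above and Panc-1 below; each point is 1 library, grey lines join the lowest and highest of a line, and the dotted line is the floor of 1 TPM. CTGF, CYR61, ANKRD1 and AJUBA have their highest point in the control of both lines, whereas the 3 points of YAP1, WWTR1 and LATS2 lie close together.

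The lines differed in where they started. In the PK-1 control, CYR61 was the highest of the 10 genes at 222 TPM and CTGF the lowest at 4.03 TPM. In the Panc-1 control, CYR61 was again the highest, at 689 TPM, and CTGF came next at 229 TPM. CTGF was thus 56.9 times higher in Panc-1 than in PK-1 on the TPM scale, and CYR61 3.10 times. ANKRD1, AMOTL1 and AJUBA went the other way, with levels 5.71, 8.54 and 2.42 times higher in PK-1. In all, 2 of the 10 genes were higher and 3 lower in the Panc-1 control by more than 2-fold, against 15.7% and 14.6% of 14618 entries. YAP1, with 59.7 and 64.5 TPM, LATS2, with 6.59 and 6.52 TPM, and AMOTL2, with 40.6 and 48.3 TPM, lay within 2-fold in both controls. No spread between libraries of different lines can be measured here.

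In the PK-1 control the order was CYR61, AJUBA, YAP1, WWTR1, AMOTL2, AMOTL1, TEAD1, ANKRD1, LATS2 and CTGF. The neighbours AJUBA and YAP1, and each neighbouring pair from WWTR1 down to ANKRD1, differed by less than the fold change spread of the line. In the Panc-1 control it was CYR61, CTGF, WWTR1, YAP1, AMOTL2, AJUBA, TEAD1, LATS2, ANKRD1 and AMOTL1. Within the spread there were WWTR1 and YAP1, AJUBA and TEAD1, and ANKRD1 and AMOTL1. After treatment CYR61 stayed the highest of the 10 genes in 3 of the 4 treated libraries. In PK-1 cells with RARγi-2 it came after YAP1, with 41.4 TPM against 61.9 TPM.

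CTGF (Entrez gene 1490, now named CCN2; chromosome 6, 131948176 to 131951372) encodes a secreted matricellular protein and is the most widely used readout of YAP1 and TAZ. Its level in Panc-1 was 229 TPM in the control, 50.4 TPM under RARγi-1 and 47.0 TPM under RARγi-2, log2 fold changes of -2.16 and -2.26. The treated libraries of Panc-1 were thus close to each other and 4.55 and 4.88 times below the control. In PK-1 the gene was near the floor, with 4.03 TPM in the control and 2.22 TPM with RARγi-1, and it was at the floor with RARγi-2, at least 4.03-fold lower than the control. The log2 fold changes were -0.64 and -1.33, past the fold change spread of 0.46, and the second depended on the pseudocount, being -2.01 without one.

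CYR61 (Entrez gene 3491, now CCN1; chromosome 1, 85580761 to 85583950) encodes another secreted protein of the same CCN family, which binds integrins. It had 222 TPM in the PK-1 control, 180 TPM under RARγi-1 and 41.4 TPM under RARγi-2. The log2 fold change in PK-1 was -0.30 with RARγi-1, within the fold change spread of 0.34, and -2.40 with RARγi-2. In Panc-1 it was 689 TPM in the control, 243 TPM under RARγi-1 and 163 TPM under RARγi-2. Both Panc-1 values were past 2-fold, with log2 fold changes of -1.50 and -2.07. Of the 4 other CCN genes, none was above 4.26 TPM in any library, and WISP1 (CCN4) was at the floor in all of them. CYR61, and in Panc-1 also CTGF, were thus the main CCN genes of these cells.

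ANKRD1 (Entrez gene 27063; chromosome 10, 90912096 to 90921087) encodes an ankyrin repeat protein that acts in the nucleus and, in muscle, at the sarcomere. It was the single gene of the 10 that was lower by more than 2-fold in all 4 comparisons, without a share of all entries to set this against. In PK-1 its level was 25.5 TPM in the control, 10.6 TPM under RARγi-1 and 3.91 TPM under RARγi-2, giving log2 fold changes of -1.19 and -2.43. Panc-1 had 4.47 TPM in the control, 1.35 TPM with RARγi-1 and the floor with RARγi-2, at least 4.47-fold lower than the control. The log2 fold changes there were -1.22 and -1.45, and without a pseudocount they were -1.73 and -2.16. The fall thus began from a low level in Panc-1 and from a moderate level in PK-1.

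AMOTL2 (Entrez gene 51421; chromosome 3, 134355345 to 134375417) and AMOTL1 (154810; chromosome 11, 94706460 to 94876748) encode angiomotin-like proteins, junction and actin scaffolds that bind YAP1 and hold it outside the nucleus. AMOTL2 had the most negative log2 fold changes of the 10 genes in Panc-1, -2.45 and -2.89, from 48.3 TPM in the control to 8.01 TPM under RARγi-1 and 5.67 TPM under RARγi-2. In PK-1 it had 40.6 TPM in the control, 47.6 TPM under RARγi-1 and 20.2 TPM under RARγi-2. The RARγi-1 value of PK-1, a log2 fold change of 0.22, was within the fold change spread of 0.39, and that of RARγi-2, -0.98, lay just inside the 2-fold threshold and past it without a pseudocount, at -1.01. Whether the lines differ in their response cannot be tested with 1 library each.

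AMOTL1 was present at 34.9, 32.8 and 27.6 TPM in the control, RARγi-1 and RARγi-2 libraries of PK-1, with log2 fold changes of -0.09 and -0.33, both within the fold change spread of 0.40. In Panc-1 it was low, at 4.09, 2.57 and 2.0 TPM, with log2 fold changes of -0.51 and -0.76, past the spread of 0.37 but within 2-fold. Without a pseudocount, the RARγi-2 value of Panc-1 was past 2-fold, at -1.03. The related gene AMOT was at the floor in all libraries except the Panc-1 control, which had 1.43 TPM. In these cells the angiomotin family was therefore expressed as AMOTL1 and AMOTL2 in PK-1 and chiefly as AMOTL2 in the Panc-1 control.

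AJUBA (Entrez gene 84962; chromosome 14, 22971177 to 22982551) encodes a LIM domain protein of cell junctions that binds LATS kinases and lowers their action on YAP1. Its level in PK-1 was 69.6 TPM in the control, 43.8 TPM under RARγi-1 and 12.5 TPM under RARγi-2. The log2 fold changes of -0.66 and -2.39 were both past the fold change spread of 0.40, and the latter was past 2-fold. In Panc-1 it had 28.7 TPM in the control, 12.2 TPM under RARγi-1 and 9.11 TPM under RARγi-2, log2 fold changes of -1.18 and -1.56. LIMD1, a related LIM protein that also binds LATS kinases, had 11.0, 23.4 and 22.0 TPM in the control, RARγi-1 and RARγi-2 libraries of PK-1, log2 fold changes of 1.02 and 0.93. In Panc-1, LIMD1 had 24.1, 29.7 and 23.0 TPM. After rescaling, the RARγi-1 value of LIMD1 in PK-1 was 0.89, within 2-fold.

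LATS2 (Entrez gene 26524; chromosome 13, 20973036 to 21061586), the kinase that phosphorylates YAP1 and TAZ and is itself one of their targets, was low and nearly even across the libraries. It had 6.59, 6.49 and 4.77 TPM in the control, RARγi-1 and RARγi-2 libraries of PK-1, and 6.52, 6.68 and 5.10 TPM in those of Panc-1. All 4 log2 fold changes, from -0.40 to 0.03, were within the fold change spread, and the highest, for RARγi-1 in Panc-1, was -0.06 after rescaling. LATS1, the other LATS kinase, had between 7.03 and 8.53 TPM in the 6 libraries. The summed level of LATS1 and LATS2 after treatment was between 88.4% and 109% of the control of the line.

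YAP1 (Entrez gene 10413; chromosome 11, 102110447 to 102233424) was expressed at 59.7 TPM in the PK-1 control, 67.8 TPM under RARγi-1 and 61.9 TPM under RARγi-2, and at 64.5, 73.1 and 53.3 TPM in Panc-1. Its 4 log2 fold changes, 0.18 and 0.05 for PK-1 and 0.18 and -0.27 for Panc-1, were within the fold change spread, 0.39 for PK-1 and 0.28 for Panc-1. WWTR1 (25937; chromosome 3, 149517235 to 149724788), which encodes TAZ, had 42.5, 56.4 and 32.7 TPM in PK-1 and 78.0, 89.0 and 62.6 TPM in Panc-1. With RARγi-1 the log2 fold changes of WWTR1 were 0.40 in PK-1, just past the spread of 0.39 and within it after rescaling, at 0.27, and 0.19 in Panc-1. With RARγi-2 they were -0.37 in PK-1, within the spread, and -0.31 in Panc-1, past the spread of 0.28. The sum of YAP1 and WWTR1 was 122% of the control with RARγi-1 and 92.5% with RARγi-2 for PK-1, and 114% and 81.3% for Panc-1. The antisense gene WWTR1-AS1, which overlaps exons of WWTR1, was at most 1.41 TPM in any library.

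TEAD1 (Entrez gene 7003; chromosome 11, 12674421 to 12944737), a DNA-binding partner of YAP1 and TAZ, had 30.3 TPM in the PK-1 control, 19.9 TPM under RARγi-1 and 8.82 TPM under RARγi-2. The log2 fold changes in PK-1 were -0.58 and -1.67, the latter past 2-fold. In Panc-1 the levels were 24.5, 16.9 and 13.2 TPM, log2 fold changes of -0.51 and -0.85, which were past the fold change spread of 0.32 and within 2-fold. TEAD1 was thus lower than the control in all 4 treated libraries, and lowest with RARγi-2 in both lines.

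**Figure D2:**
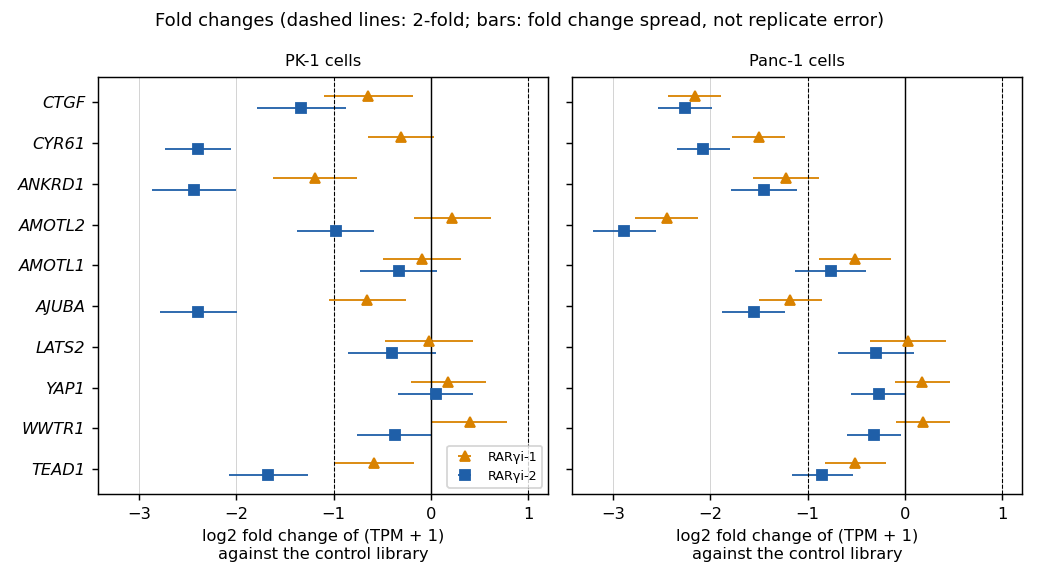
Log2 fold change of TPM + 1 against the control library of the line for each of the 10 genes, PK-1 left and Panc-1 right, for RARγi-1 (triangles) and RARγi-2 (squares); bars show the fold change spread, which is not a replicate error, and dashed lines mark 2-fold. In Panc-1, CTGF, CYR61, ANKRD1, AMOTL2 and AJUBA lie past -1 with both inhibitors, while in PK-1 the RARγi-2 points lie further left than the RARγi-1 points.

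The other TEAD genes were read beside TEAD1, because any of them can carry YAP1 and TAZ. TEAD4 had log2 fold changes close to those of TEAD1, with 39.1, 24.9 and 11.5 TPM in the control, RARγi-1 and RARγi-2 libraries of PK-1 and 40.9, 29.2 and 24.9 TPM in those of Panc-1. TEAD2 was lower by more than 2-fold with both inhibitors in Panc-1, at 16.4, 7.43 and 3.26 TPM, and in PK-1 it had 6.01, 3.33 and 1.15 TPM. TEAD3 differed from these: it had 22.5, 32.7 and 22.7 TPM in PK-1 and 11.6, 18.2 and 11.3 TPM in Panc-1, so that its level with RARγi-2 was close to the control. The sum of the 4 TEAD genes was 97.8 TPM in the PK-1 control and 80.8 and 44.2 TPM after RARγi-1 and RARγi-2, or 82.6% and 45.1% of the control. In Panc-1 it was 93.4 TPM in the control and 71.6 and 52.7 TPM after treatment, or 76.7% and 56.4%. The share of TEAD3 in this sum went from 23.0% to 40.4% and 51.4% in PK-1 and from 12.4% to 25.3% and 21.5% in Panc-1.

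VGLL1 and VGLL4 encode cofactors that bind TEAD proteins in place of YAP1 and TAZ. VGLL1 was present in PK-1 alone, at 111 TPM in the control, 18.9 TPM under RARγi-1 and 9.46 TPM under RARγi-2, giving log2 fold changes of -2.49 and -3.42. The 3 Panc-1 libraries list it at the floor. VGLL4, which represses TEAD targets, had 13.2, 17.6 and 18.7 TPM in PK-1 and 12.4, 19.9 and 13.2 TPM in Panc-1, within 2-fold of the control.

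The remaining pathway genes were followed by role, in lists that hold 80 genes besides the 10, all of which are in the files. The 6 further genes of the Hippo kinase core, STK3, STK4 (the genes for MST2 and MST1), SAV1, MOB1A, MOB1B and LATS1, stayed within 2-fold of the control in all 4 comparisons. Most entries did so too. In any comparison at most 12.3% of all entries were lower and at most 11.9% higher by more than 2-fold. The log2 fold changes of the 6 genes lay between -0.74 and 0.35 for PK-1, with medians of 0.19 (RARγi-1) and -0.15 (RARγi-2). For Panc-1 they lay between -0.50 and 0.44, with medians of 0.10 and -0.15. Past the fold change spread there were STK4 with RARγi-1 in Panc-1, at 0.44, and MOB1A and MOB1B with RARγi-2 in both lines, at -0.74 and -0.67 for PK-1 and at -0.33 and -0.50 for Panc-1.

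A list of 22 genes commonly used as YAP and TAZ targets holds 17 genes besides CTGF, CYR61, ANKRD1, AMOTL2 and LATS2. Of these 17, PK-1 expressed 15 above the floor and Panc-1 16. In PK-1, 4 were lower by more than 2-fold with RARγi-1 and 6 with RARγi-2, against 4.85% and 12.3% of all entries, and in Panc-1 5 and 8 were, against 5.96% and 11.0%. Higher by more than 2-fold were 1 and 2 for PK-1, against 9.05% and 11.9% of all entries, and 2 and 1 for Panc-1, against 7.30% and 8.34%. Median log2 fold changes were -0.39 and -0.94 for PK-1, and -0.37 and -1.0 for Panc-1. With both inhibitors the lower genes were F3, CRIM1, FJX1 and TGFB2 in PK-1, and MYOF, AXL, FJX1, NUAK2 and TGFB2 in Panc-1. These were 4 of 15 and 5 of 16 genes, against 4.60% and 5.59% of all entries. FJX1 and TGFB2 were lower by more than 2-fold in all 4 comparisons.

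F3, which encodes tissue factor, the starter of blood coagulation, had the most negative log2 fold changes of these targets in PK-1 with RARγi-2. It went from 468 TPM in the control to 120 TPM under RARγi-1 and 27.4 TPM under RARγi-2 in PK-1, while in Panc-1 it had between 2.34 and 2.93 TPM. TGFB2, which encodes a transforming growth factor β, had 8.32 TPM in the PK-1 control and 8.33 TPM in the Panc-1 control. It had 1.11 TPM with RARγi-1 in PK-1 and was at the floor in the 3 other treated libraries, at least 8.32-fold lower with RARγi-2 in PK-1 and at least 8.33-fold lower in Panc-1. FJX1, a relative of the kinase that modifies FAT cadherins, had 49.7, 20.8 and 5.89 TPM in PK-1 and 52.8, 24.4 and 18.9 TPM in Panc-1. FJX1 and TGFB2 were thus lower in both lines, and F3 in PK-1, where its control level was high.

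NUAK2, a kinase of the AMPK family, had 18.6, 10.7 and 4.21 TPM in PK-1 and 16.4, 5.0 and 2.75 TPM in Panc-1. AXL, a receptor tyrosine kinase, had 147, 98.1 and 77.1 TPM in PK-1 and 153, 61.3 and 66.7 TPM in Panc-1. MYOF, which encodes the membrane repair protein myoferlin, had 243, 210 and 168 TPM in PK-1 and 228, 94.4 and 50.4 TPM in Panc-1. CRIM1, a membrane protein that binds bone morphogenetic proteins, was lower by more than 2-fold in PK-1, at 65.1, 31.0 and 20.6 TPM, and had 75.8, 58.8 and 38.4 TPM in Panc-1. All of these targets were below the control in each of the 4 treated libraries, although MYOF with RARγi-1 in PK-1, at a log2 fold change of -0.21, was within the fold change spread of 0.33.

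Other targets were above the control. GADD45A, a growth arrest gene that is also induced by stress and DNA damage, was higher by more than 2-fold in all 4 comparisons, although its RARγi-1 value in PK-1, 1.08, was 0.95 after rescaling. Its levels were 99.6 TPM in the PK-1 control and 212 and 247 TPM after treatment. Panc-1 had 78.2 TPM in the control and 342 and 418 TPM after treatment. IGFBP3, which encodes a binding protein of insulin-like growth factors, was above the control in all 4 treated libraries. Its log2 fold changes in PK-1, 0.28 and 0.23, were within the fold change spread of 0.34. In Panc-1, where IGFBP3 had at most 5.84 TPM, they were 1.22 and 0.68. CCDC80 went both ways in PK-1, with 13.4 TPM in the control, 6.46 TPM under RARγi-1 and 30.4 TPM under RARγi-2. Its log2 fold changes were -0.95, which was past 2-fold at -1.07 after rescaling, and 1.13. IGFBP3 and CCDC80 were named after their values were seen. At most 2 of the further targets were higher by more than 2-fold in any comparison. This is near the shares of all entries, so these genes do not set the list apart. By any amount, most further targets were below the control. PK-1 had 12 of 15 below it and 3 above it with each inhibitor. Panc-1 had 12 of 16 below and 4 above with RARγi-1, then 13 below and 2 above with RARγi-2.

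**Figure D3:**
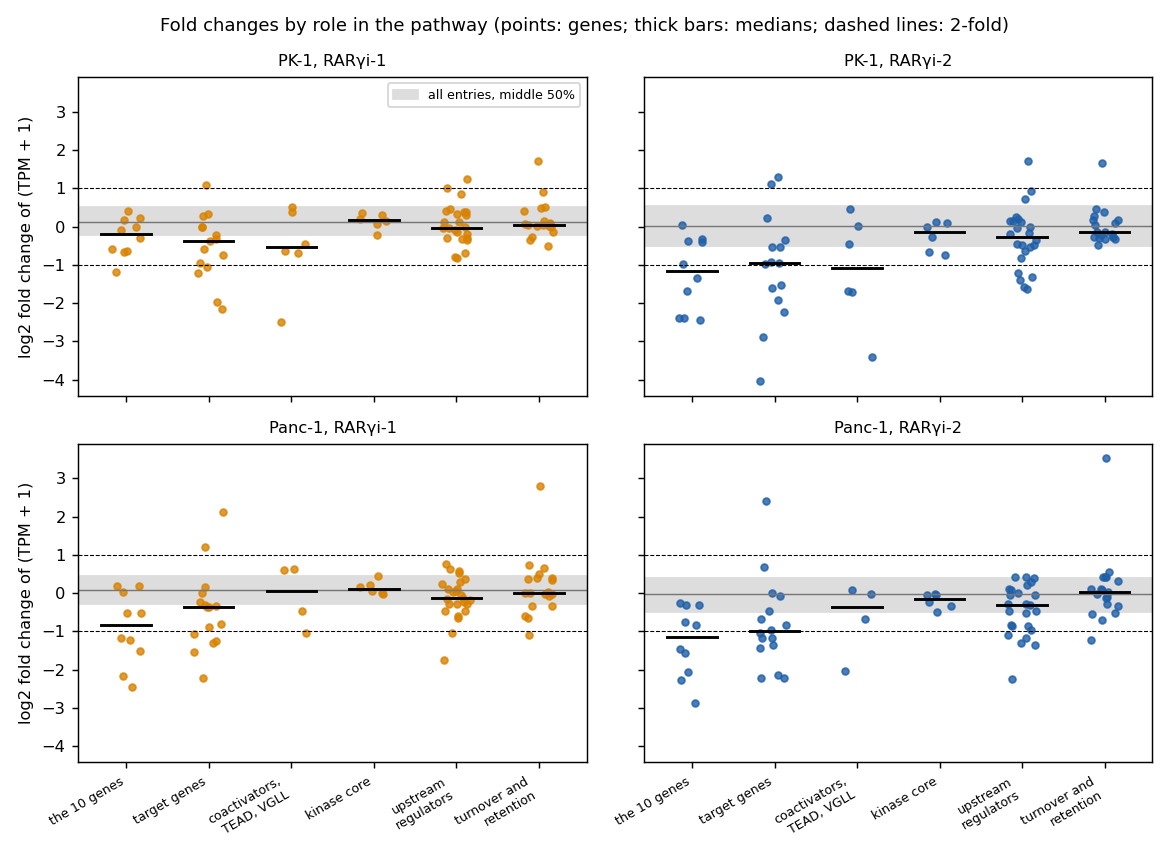
Log2 fold change of TPM + 1 in the 4 comparisons for the 10 genes and for the further genes of each role, over genes above the floor in the line; each point is 1 gene, thick bars are medians, the grey band holds the middle 50% of all entries above the floor and dashed lines mark 2-fold. With RARγi-2 the medians of the 10 genes, -1.15 in both lines, and of the further target genes, -0.94 and -1.0, lie below the grey band, while the median of the kinase core lies inside it. The median of the further TEAD and VGLL genes with RARγi-2 also lies below the band in PK-1, at -1.07 over 6 genes. In Panc-1 it lies inside, at -0.36 over 4 genes. With RARγi-1 in PK-1 the median of the 10 genes, -0.20, lies inside the band.

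Among 28 further upstream regulators, PK-1 expressed 24 above the floor and Panc-1 25. With RARγi-1 and RARγi-2, 0 and 5 were lower by more than 2-fold for PK-1, against 4.85% and 12.3% of all entries, and 2 and 5 for Panc-1, against 5.96% and 11.0%. Higher by more than 2-fold were 2 and 1 for PK-1, against 9.05% and 11.9%, and none for Panc-1, against 7.30% and 8.34%. The shares lower with RARγi-1 were thus near or below those of all entries. FAT1, an atypical cadherin that feeds into the Hippo kinases, had 38.8, 23.5 and 12.5 TPM in PK-1 and 39.2, 11.0 and 7.39 TPM in Panc-1. NF2, which encodes Merlin, the scaffold that brings LATS kinases to the membrane, had 34.7, 19.1 and 12.7 TPM in PK-1 and 78.3, 37.6 and 29.8 TPM in Panc-1. FAT1 and NF2 were the 2 of these 25 genes lower by more than 2-fold with both inhibitors in Panc-1, against 5.59% of all entries. CRB3, an apical polarity protein, was higher by more than 2-fold in PK-1, at 15.5, 37.9 and 53.4 TPM, and was at the floor in Panc-1. It was the 1 of 24 genes higher with both inhibitors in PK-1, against 7.10% of all entries.

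Of 19 genes for YAP1 and TAZ turnover and retention, SFN was higher by more than 2-fold in all 4 comparisons. SFN encodes 14-3-3σ, a member of the 14-3-3 family that binds phosphorylated partners and is also known for its part in cell cycle arrest. It had 755 TPM in the PK-1 control and 2506 and 2388 TPM after treatment, and 121 TPM in the Panc-1 control and 844 and 1404 TPM after treatment. YWHAQ, which encodes 14-3-3θ, was lower by more than 2-fold in Panc-1, from 805 TPM to 374 and 344 TPM, and had 794, 725 and 661 TPM in PK-1. The other 17 genes stayed within 2-fold of the control in all 4 comparisons. In each comparison 1 of the 19 was thus higher by more than 2-fold. The shares of all entries were 9.05% and 11.9% for PK-1 and 7.30% and 8.34% for Panc-1. Lower by more than 2-fold was 1 of 19 with each inhibitor in Panc-1, or 5.26%, against 5.96% and 11.0% of all entries. The genes of this list were therefore not past 2-fold more often than all entries. The medians of the 19 log2 fold changes were between -0.15 and 0.05.

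**Figure D4:**
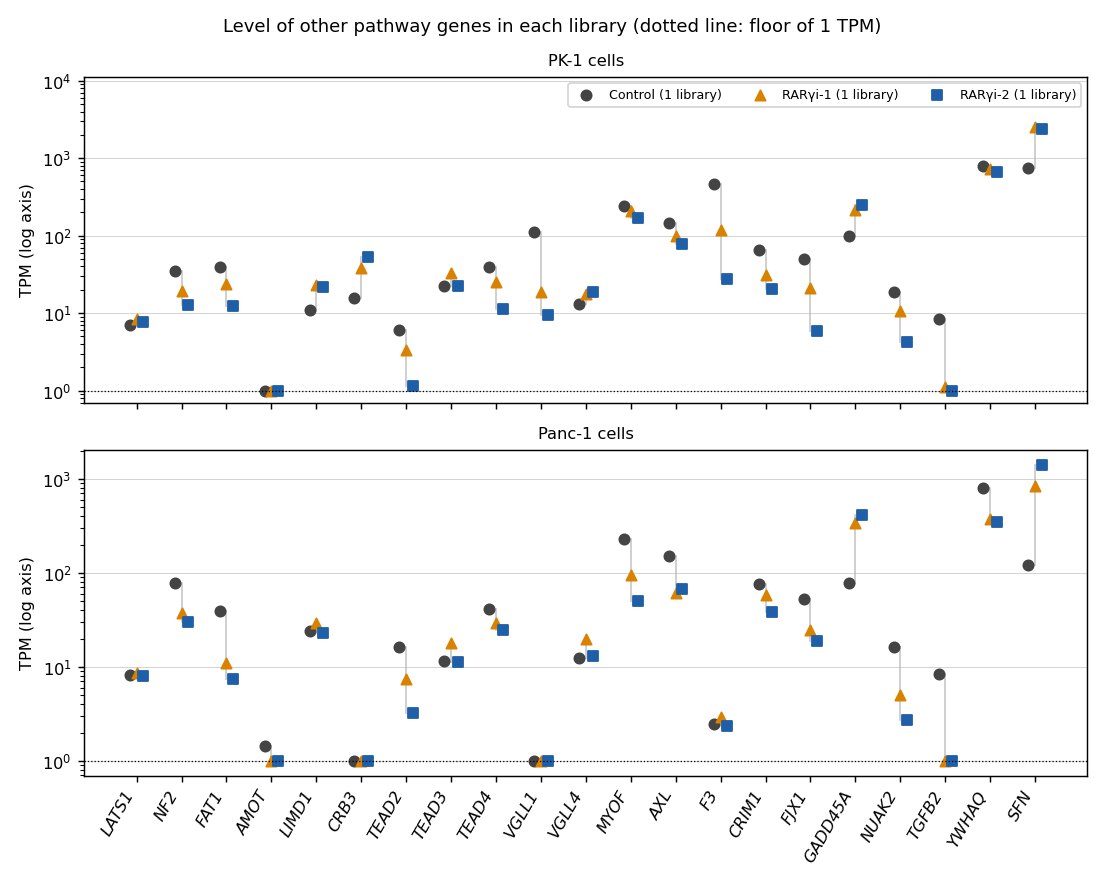
TPM on a log axis for the pathway genes named besides the 10, in PK-1 (above) and Panc-1 (below); each point is 1 library, grey lines join the lowest and highest value, and the dotted line is the floor of 1 TPM. TGFB2, FJX1 and NUAK2 have their highest point in the control of both lines and GADD45A and SFN their lowest, and VGLL1 and CRB3 are above the floor in PK-1 alone.

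Each of the 10 genes was lower in the RARγi-2 than in the RARγi-1 library of the same line, for both lines. The median of this log2 difference was -0.93 for PK-1 and -0.36 for Panc-1, against -0.13 and -0.10 over all entries, of which 63.0% and 63.6% were lower in the RARγi-2 library. The doses are not stated, so the inhibitors are not compared further. In PK-1 this difference was -2.09 for CYR61, -1.74 for AJUBA and -1.24 for ANKRD1, and -0.13 for YAP1. In Panc-1 it ran from -0.57 for CYR61 to -0.10 for CTGF.

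By the root mean square difference over the 4 log2 fold changes, LATS2, WWTR1 and YAP1 were the closest to each other among the 10 genes, at 0.22 to 0.26, followed by ANKRD1 and AJUBA at 0.28. Among the 10629 entries that reached 10 TPM in any library, the 3 closest to CTGF were MAP3K14, PRADC1 and JCAD, at 0.079, 0.22 and 0.23. Closest to CYR61 were KIRREL, LAMB1 and PFKM, at 0.21, 0.22 and 0.28, and closest to ANKRD1 were KIF22, KPNA2 and CKAP2, at 0.077, 0.098 and 0.12. LAMB1 encodes a laminin chain, and KIF22 and CKAP2 encode proteins of the mitotic spindle. This likeness rests on 4 fold changes from 6 libraries, in which 2 fold changes share each control. It also depends on the pseudocount, which compresses the fold changes of ANKRD1 in Panc-1 and CTGF in PK-1, near the floor. Without a pseudocount those of ANKRD1 in Panc-1 were -1.73 and -2.16, in place of -1.22 and -1.45. KIF22, at 56.6 TPM or more in Panc-1, is hardly affected. The search was not repeated without a pseudocount.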

How the data were processed

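Libraries were made from total RNA of PK-1 and Panc-1 cells with a stranded mRNA kit, 1 library for each of the 6 conditions. No p-value was computed, and a fit with the cell line as a block was not run. The authors deposited TPM on a log2 scale, per the file headers. No value lies below 0, so values under 1 TPM had been raised to 1 TPM. The submitters' processing notes name the build hg38. The aligner, the counting method, its use of strand and the annotation are not given in the sources used here. TPM were recovered from the log2 values, and fold changes of TPM + 1 were computed on a log2 scale with Python 3.11.15 and pandas 2.3.3. An entry counted as lower or higher when it was past 2-fold. Background shares cover entries above 1 TPM in any library of the line. The script was tested on simulated libraries. The fold change spread is the median absolute deviation, times 1.4826, of the log2 difference between a line's treated libraries. Gene positions and promoters are from RefSeq, GRCh38.p14. For a repeated symbol the row with the highest mean was kept, and each of the 10 genes has 1 row. Genes on the other strand overlap exons of AMOTL1, CTGF, WWTR1 and YAP1 in GENCODE 29, and their reads cannot be told apart where strand is not used. Genes on the same strand overlap exons of AJUBA and of AMOTL2 (RPL39P5, at the floor in every library), and strand does not separate these.

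The 10 genes, the lists and the alternatives were chosen with earlier results of these data known. Besides the 10 genes, the text names the pathway genes past 2-fold in the same direction with both inhibitors in at least 1 line with at least 5 TPM there, TEAD2, TEAD3, TEAD4, AMOT, LATS1, LIMD1 and VGLL4 as paralogs or partners, and for CTGF, CYR61 and ANKRD1 the 3 entries closest in pattern. WISP1 and the further kinase core genes were named to account for their lists, and IGFBP3 and CCDC80 after their values were seen. The alternatives were no pseudocount, a pseudocount of 0.1, rescaling by median ratios, summed rows, thresholds of 1.5-fold and 3-fold, and a minimum of 5 TPM.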

Additional observations from a re-analysis of the deposited data

How the results depend on the processing

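The counts of genes past the threshold depended mostly on the threshold itself. Except with the minimum of 5 TPM, the counts cover genes above the floor, 70 of the 80 further genes in PK-1 and 71 in Panc-1. Shares of all entries past 1.5-fold and 3-fold were not computed, so counts at these thresholds only show how they depend on the threshold. At 1.5-fold, 3 of the 10 genes were lower with RARγi-1 in PK-1. Of the further genes, 12 were then lower with RARγi-1 in PK-1, 15 lower and 10 higher with RARγi-1 in Panc-1, and 26 lower with RARγi-2 in Panc-1. At 3-fold, 0 of the 10 genes were lower with RARγi-1 in PK-1, 2 with RARγi-1 in Panc-1 and 3 with RARγi-2 in Panc-1. Of the further genes, 3 were then lower and 1 higher with RARγi-1 in PK-1, 9 lower and 2 higher with RARγi-2 in PK-1, 2 lower with RARγi-1 in Panc-1 and 5 lower with RARγi-2 in Panc-1. After rescaling by median ratios, 2 of the further genes in place of 4 were higher with RARγi-1 in PK-1, since LIMD1 and GADD45A came within 2-fold at 0.89 and 0.95. With no pseudocount, a pseudocount of 0.1, summed rows or a minimum of 5 TPM, all 18 counts stayed within 1.5 times their value. None of the 10 genes past 2-fold changed direction under these alternatives. The cause of these changes is the threshold or scale itself.

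With no pseudocount, 3 log2 fold changes of the 10 genes against the control of the line moved by more than the fold change spread. All of them were for CTGF or ANKRD1 near the floor. The comparison of the controls with each other is left out here, because no spread between lines can be measured. The labels carry no replicate numbers. Control and treated libraries pair by cell line, but a fit with the line as a block was not run. With 1 library per condition, there was no replicate to leave out. Depth is not known from TPM, so genes near 1 TPM, such as CTGF in PK-1 and ANKRD1 in Panc-1, carry the least certain fold changes.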
